A study of Mus musculus with 10 samples.

Results

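The genes described here are 31 markers and regulators of hematopoietic stem cells and multipotent progenitors, taken as a list of symbols. The symbols were matched to the Ensembl identifiers of the deposited table through GENCODE. All 31 were found among its 38887 identifiers, and all 31 passed the filter on low counts. RNA was sequenced from hematopoietic progenitor cells of the bone marrow of mice bearing Lewis lung carcinoma, a transplantable mouse lung tumour. Mice of the vehicle group (5 libraries, titled untreated) received vehicle. Mice of the CK2i group (5 libraries) received the CK2 inhibitor BMS-595 at 60 mg/kg (CK2 is a serine/threonine kinase), and both groups were treated for 2 weeks. All 10 libraries therefore come from tumour-bearing mice, and no library from mice without a tumour was used here. The sources used here do not give mouse strain, age or sex, the markers by which the progenitors were isolated, or whether each library is 1 mouse.

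Hematopoietic stem cells sit at the top of blood formation: they divide rarely, renew themselves and give rise to multipotent progenitors, which lose self-renewal and feed the myeloid, erythroid, megakaryocytic and lymphoid lineages. In mouse marrow the receptor tyrosine kinase Kit and the surface protein Ly6a (Sca-1) mark the compartment that holds both. Slamf1 (CD150) and Procr mark its stem cells, while Cd34, Flt3 and Cd48 appear on multipotent progenitors. A network of transcription factors that includes Erg, Lyl1, Mecom, Prdm16 and Hlf maintains the stem cell state. Several of the surface genes are shared with other cells, since Slamf1 and Esam are also made in megakaryocyte progenitors, Kit in mast cells, and Tek, Eng, Esam and Procr in endothelium.

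Libraries held 34127674 to 43636152 estimated counts. On the first principal component of all tested genes, which held 40.8% of the variance, CK2i 2 and CK2i 5 stood apart at 43.3 and 43.7, against -4.101 to 12.5 for the other 3 CK2i libraries and -29.6 to -9.37 for vehicle. Results are therefore also given for the treated group reduced to CK2i 1, 3 and 4. CK2i 2 and CK2i 5, left out there, lay farthest from vehicle on this component. Smaller differences and fewer calls can follow from that choice and from the smaller treated group. The defining T cell gene Cd3e was at 0.133 CPM (counts scaled to the size of the library) or less in every library. The endothelial gene Cdh5 was at 0.972 CPM or less. Levels differed within these marker lists: in vehicle the endothelial genes Egfl7 and Kdr were at 28.7 and 22.5 CPM. In the T and NK cell list, Lck and Cd4 were at 2.27 and 1.18 CPM in vehicle. Genes of the megakaryocyte lineage were abundant: summed CPM of 9 megakaryocyte markers was 2271 to 3566 in vehicle and 1295 to 2749 in CK2i libraries. Kit and Cd34, which define progenitors, were among the most abundant of the 31 genes in all 10 libraries, as given below.

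Levels between genes were compared per transcript length, as FPKM. In vehicle libraries the range ran from 76.5 ± 12.6 FPKM for Cd34 (SD, n = 5), a surface sialomucin of progenitors, to 0.212 ± 0.128 FPKM for Fgd5, a guanine nucleotide exchange factor that marks stem cells. Next to Cd34 lay Adgrg1 (the adhesion receptor GPR56) at 73.4 ± 3.92, Txnip (an inhibitor of thioredoxin and of glucose uptake) at 72.9 ± 6.89, Kit at 56.9 ± 2.98 and the basic helix-loop-helix factor Lyl1 at 54.98 ± 2.93 FPKM. Cd34, Adgrg1 and Txnip lay closer to each other than their spread, as did Kit and Lyl1. Cd48 followed at 47.99 ± 6.996, the Polycomb gene Bmi1 at 38.1 ± 1.08 and the receptor gene Flt3 at 16.3 ± 3.28 FPKM.

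Of the genes best known from stem cells, Slamf1 at 17.6 ± 2.52 FPKM and the adhesion gene Esam at 20.4 ± 2.19 lay near Flt3. Mllt3 lay higher, at 32.6 ± 3.30 FPKM, and Myct1 somewhat lower, at 11.1 ± 1.04. Others lay far lower. Hlf, a bZIP factor, was at 2.14 ± 0.384, the zinc finger factor genes Mecom and Prdm16 at 1.78 ± 0.395 and 1.05 ± 0.451, and Procr, the protein C receptor, at 0.576 ± 0.166 FPKM. Of the 31 genes, 5 were under 1 FPKM in vehicle: Procr, Hmga2 (a chromatin protein of fetal stem cells), the homeobox gene Nkx2-3, Ndn (the imprinted gene of necdin) and Fgd5. Ndn had the fewest reads of all, with 9 to 24 counts per library in vehicle and 11 to 23 in CK2i, so a difference in it would have to be large to be detectable at this depth. Bulk RNA cannot tell fewer cells of a type from less RNA per cell, which holds for every value below.

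**Figure D1:**
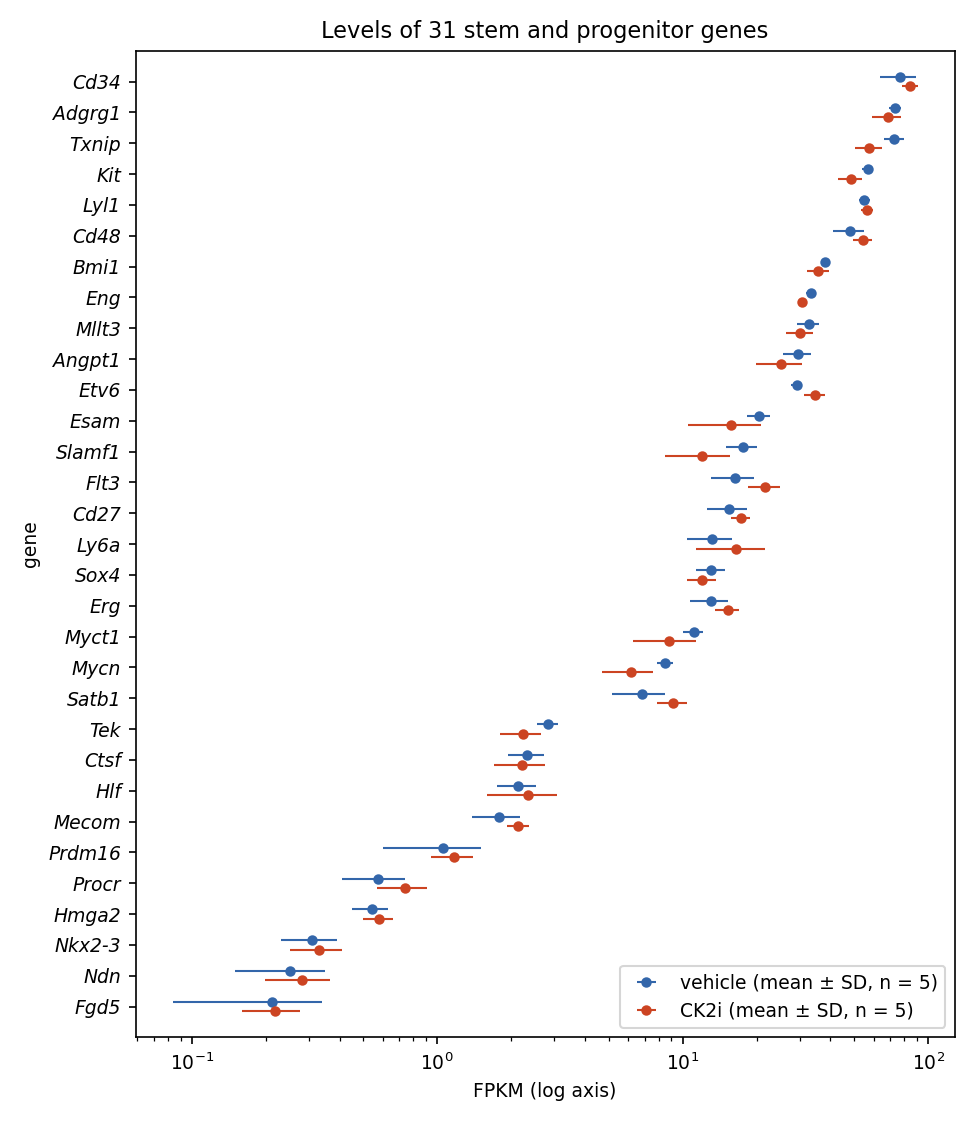
Mean FPKM ± SD (n = 5 per group) of the 31 genes on a log axis, vehicle in blue and CK2i in red, ordered by the vehicle level. Cd34, Adgrg1, Txnip and Kit lie at the top and 5 genes lie under 1 FPKM in vehicle, with the group intervals overlapping for most genes.

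The comparison of CK2i with vehicle asks how the inhibitor altered this set of genes. Of the 31 genes, 4 were lower in CK2i libraries at an adjusted p under 0.05 in edgeR's quasi-likelihood test: Kit, Txnip, Mycn and Eng. None was higher. Among all 14346 genes tested, 6.76% were called lower, 6.43% higher and 13.2% in either direction. The 4 calls are 12.9% of the 31 genes, a share close to the last of these. The median log2 difference was 0.029 over the 31 genes and -0.00062 over all genes tested, with 15 of the 31 below 0 and 16 above. At an unadjusted p under 0.05, 7 were lower and 3 higher, where 34.6% of all genes passed in either direction. DESeq2 called 6 lower, adding Slamf1 and Tek, and 2 higher, Etv6 and Flt3 (10.2% and 11.9% of all genes), while limma on log2(FPKM + 1) called Txnip lower and none higher (3.76% and 3.86% of all genes).

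The calls depended on which libraries were included. The number called lower was 0 without vehicle 1, without vehicle 3, without vehicle 4 or without CK2i 5, then 1 without CK2i 2, 2 without vehicle 5 or without CK2i 4, 3 without vehicle 2, 4 without CK2i 1, and 7 without CK2i 3, where 2 genes were also higher (10.2% of all genes lower and 11.9% higher in that fit). The count over all genes moved too: it was 458, 758, 528 and 446 in the 4 fits in which none of the 31 was called lower and 617 and 546 without CK2i 2 and without vehicle 5, against 1892 with all libraries. When the treated group was reduced to CK2i 1, 3 and 4, edgeR called no gene of the 31 (5 lower and 2 higher at an unadjusted p under 0.05), where 0.699% of all genes were called lower and 0.501% higher, and 30 of the 31 log2 differences kept their sign (all but Ctsf).

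**Figure D2:**
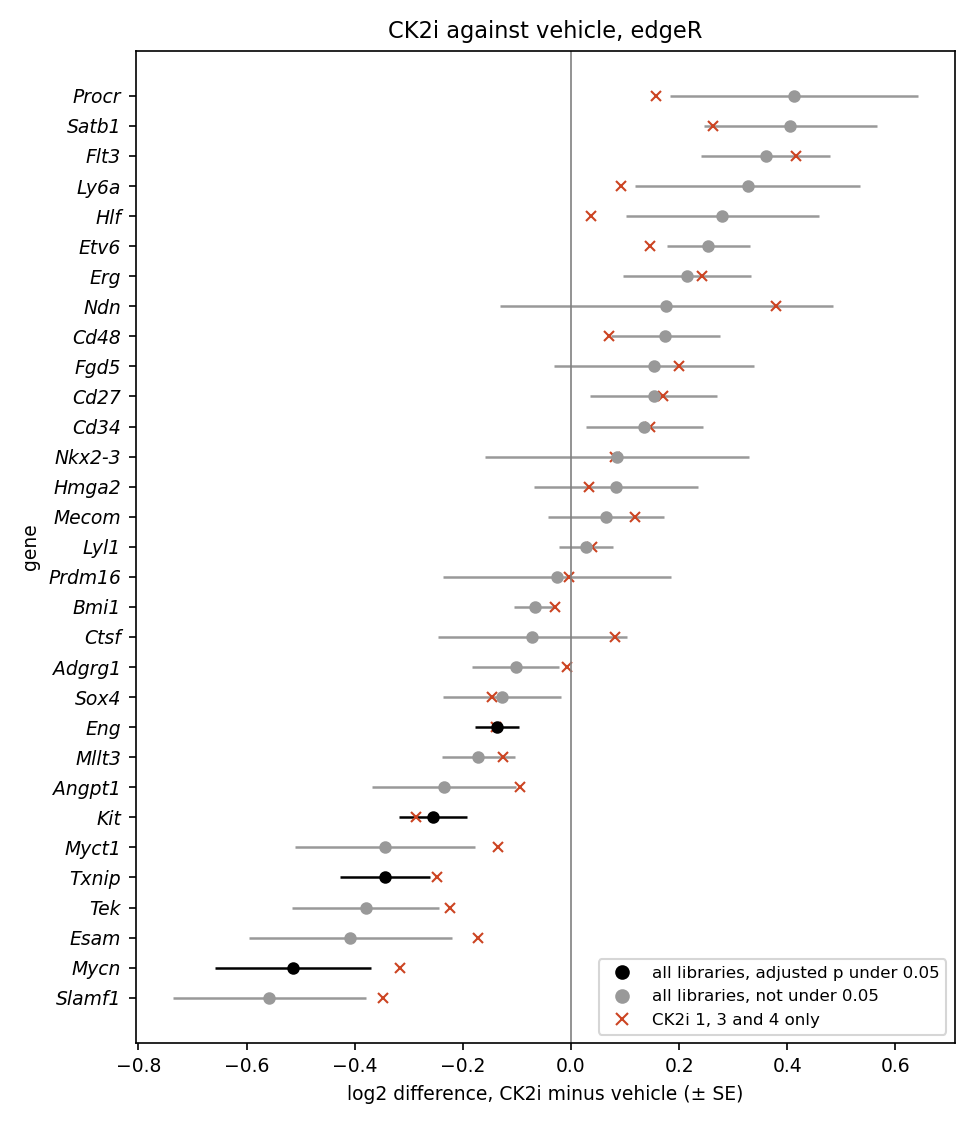
Log2 difference of CK2i minus vehicle (dot, ± SE, edgeR on 5 against 5 libraries) for each gene, black where the adjusted p was under 0.05, with the value for CK2i 1, 3 and 4 only as a red cross. The 4 black genes lie below 0, and the crosses of Slamf1, Esam, Myct1, Procr and Hlf lie closer to 0 than their dots.

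The 4 genes that fell differ in role, and their promoters are shown because they are the sequences in front of the genes called. Each run is taken from the 250 bases before the transcript start in RefSeq (GRCm38.p6), written 5′ to 3′ on the strand of the gene. For Kit and Mycn, whose GENCODE start lies further upstream, the 179 and 172 bases before that start are printed. The region is chr3:96557707-96557956 (plus strand) for Txnip, chr5:75574737-75574915 (plus) for Kit, chr12:12941915-12942086 (minus) for Mycn and chr2:32646345-32646594 (plus) for Eng. Capitals mark a match to the carbohydrate response element, a pair of E-box-like elements with a fixed spacer, through which Mlx and MondoA (gene symbol Mlxip) act on Txnip when glucose is plentiful.
Txnip: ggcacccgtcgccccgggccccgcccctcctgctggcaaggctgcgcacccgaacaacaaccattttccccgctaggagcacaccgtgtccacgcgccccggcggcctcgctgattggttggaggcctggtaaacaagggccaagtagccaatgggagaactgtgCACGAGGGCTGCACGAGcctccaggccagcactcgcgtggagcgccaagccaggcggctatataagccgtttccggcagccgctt
Kit: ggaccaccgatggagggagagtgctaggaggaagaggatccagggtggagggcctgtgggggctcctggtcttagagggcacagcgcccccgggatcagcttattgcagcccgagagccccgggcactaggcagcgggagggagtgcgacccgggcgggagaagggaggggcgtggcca
Mycn: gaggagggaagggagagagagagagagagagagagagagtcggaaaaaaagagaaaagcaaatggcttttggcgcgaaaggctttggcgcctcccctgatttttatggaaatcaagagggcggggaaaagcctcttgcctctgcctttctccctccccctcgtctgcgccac
Eng: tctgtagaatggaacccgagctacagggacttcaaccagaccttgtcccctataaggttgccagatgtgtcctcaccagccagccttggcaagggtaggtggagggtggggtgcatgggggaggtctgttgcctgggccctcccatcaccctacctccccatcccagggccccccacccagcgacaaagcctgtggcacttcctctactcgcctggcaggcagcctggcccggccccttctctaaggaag
The table held promoters for 28 of the 31 genes (38 promoters), and all 250 bases of each were searched on both strands. The element was found in Txnip alone of the 28 and in 15 of the 32851 promoters in the table (0.0457%). It lies 85 to 69 bases before the Txnip start. None of the 4 promoters held the E-box CACGTG (6.02% of all promoters), the ETS motif CCGGAAGT (2.88%), the GATA motif AGATAA (9.99%), the RUNX motif TGTGGT (14.05%) or the PAR bZIP motifs TTACGTAA and TTATGTAA (0.931% for either). Among the other genes matched, the E-box was found in Bmi1 and Ctsf, the GATA motif in Erg and Myct1, the RUNX motif in Cd48 and a PAR bZIP motif in Ndn. A match describes letters in this window and is not evidence of binding.

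Kit encodes the receptor of stem cell factor, which stem and progenitor cells need for survival and division. It (ENSMUSG00000005672; GRCm38 chromosome 5, 75574916 to 75656722, plus strand) stood at 281, 262, 275, 282 and 244 CPM in vehicle 1 to 5 and at 224, 253, 205, 233 and 210.2 CPM in CK2i 1 to 5. Of the CK2i libraries 4 lay below all vehicle libraries, and CK2i 2 lay inside their range. Kit fell by 0.26 ± 0.063 on the log2 scale (SE, edgeR adjusted p = 0.0302), from 269 ± 16.05 to 225 ± 19.2 CPM (SD, n = 5). The difference was as large with CK2i 1, 3 and 4 only, at -0.29 (adjusted p = 0.0556). Leaving out each library in turn kept the call in 6 of 10 fits and lost it without vehicle 1, vehicle 3, vehicle 4 or CK2i 5. Summed CPM of 8 basophil and mast cell markers (mast cells carry Kit) was 550.2, 653, 856, 506 and 629 in vehicle 1 to 5 and 246, 438, 473, 458 and 591 in CK2i 1 to 5. Of the 6 tested, edgeR called none (4 lower at an unadjusted p under 0.05; 2 lower by DESeq2; none by limma). Most of the sum was the basophil genes Prss34 and Mcpt8, at 317 and 153 CPM in vehicle. Gata2 made up the next largest part, with group means of 73.4 ± 7.31 (vehicle) and 59.1 ± 9.04 CPM (CK2i). This transcription factor is also counted among the partners in the stem cell network below. The sum is therefore not specific to basophils and mast cells. Gata2 was among the 6 tested and among the 4 lower at an unadjusted p under 0.05. The connective tissue mast cell genes Cma1 and Tpsb2 were at 0.109 and 0.0246 CPM in vehicle. The part of these cells in the Kit result was not tested.

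Flt3, the receptor whose expression marks the step from stem cell to multipotent and lymphoid-primed progenitor, leaned the other way without passing. Vehicle 1 to 5 held 58.7, 69.1, 70.1, 75.5 and 48.5 CPM and CK2i 1 to 5 held 100.03, 75.3, 74.9, 83.2 and 79.8 CPM. CK2i 1, 4 and 5 were above all vehicle libraries, and vehicle 5 and vehicle 1 were the lowest of the 10. The log2 difference was 0.36 ± 0.12 (edgeR adjusted p = 0.064, DESeq2 adjusted p = 0.0246) and 0.42 with CK2i 1, 3 and 4 only.

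Among genes that act with these receptors, 3 of 13 tested partners of Kit and Flt3 fell and 1 rose. For this and each later list counted in edgeR's main fit, 6.76% of all genes tested were called lower and 6.43% higher. Stat5a, a transcription factor activated by cytokine receptors, fell by 0.23 ± 0.045 (adjusted p = 0.0178), from 162 ± 3.17 to 138 ± 8.57 CPM. Jak2, a cytokine receptor kinase, fell by 0.32 ± 0.063 (adjusted p = 0.0181), and Stat5b fell by 0.16 ± 0.037 (adjusted p = 0.0258). All 5 CK2i libraries lay below all vehicle libraries for these 3 genes. Stat5a and Jak2 were called in all 10 fits without 1 library, and Stat5b in 4. The member that rose was Cbl, a ubiquitin ligase that acts on activated Kit, at 47.2 ± 3.73 and 75.9 ± 27.6 CPM (adjusted p = 0.0497). Kitl, the ligand of Kit, was at 2.68 and 2.34 CPM.

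Eng and Tek are receptors that stem cells share with endothelium. Eng, the coreceptor endoglin for transforming growth factor beta and bone morphogenetic proteins (ENSMUSG00000026814; chromosome 2, 32646595 to 32682669, plus strand), stood at 81.97, 77.9, 79.6, 86.97 and 87.6 CPM in vehicle 1 to 5 and at 75.2, 75.5, 73.8, 77.1 and 74.8 CPM in CK2i 1 to 5. The groups did not overlap, which held for 2 of the 31 genes in this direction (5.76% of all genes), Eng and Txnip, while no gene of the 31 lay above in all CK2i libraries (5.18% of all genes). The fall was small, 0.14 ± 0.040 log2 (adjusted p = 0.0475), and was called in 1 of the 10 fits without 1 library, the fit without vehicle 2. It was also lost with no filter on low counts (adjusted p = 0.0614) and at a minimum count of 50 (adjusted p = 0.0514). The log2 difference was -0.14 with CK2i 1, 3 and 4 only (adjusted p = 0.168). One exon of Eng overlaps Fpgs on the other strand by 61 bases, and Fpgs was at 81.7 ± 5.12 and 67.8 ± 8.696 CPM. Whether reads were counted by strand is not given in the sources used here.

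Tek, the angiopoietin receptor, was at 11.9 ± 0.855 and 9.16 ± 1.93 CPM with 4 CK2i libraries below all vehicle libraries, and missed the threshold (-0.38 ± 0.14, edgeR adjusted p = 0.0804, DESeq2 adjusted p = 0.0411). Its ligand Angpt1, which stem and progenitor cells make themselves, was at 121 ± 15.6 and 103 ± 21.5 CPM (adjusted p = 0.23), with 4 CK2i libraries below all vehicle libraries and CK2i 3 among the higher ones. The rival ligand Angpt2 was near 0, at 0.249 and 0.132 CPM. Of 13 tested partners in Tek and endoglin signalling 1 fell and 3 rose. Tgfbr3, the coreceptor betaglycan, fell by 0.67 ± 0.073 (adjusted p = 0.00203), from 42.8 ± 2.47 to 26.8 ± 2.78 CPM, and stayed called whichever library was left out, also for CK2i 1, 3 and 4 alone (-0.65, adjusted p = 0.0159). Id1, a target gene of bone morphogenetic protein signals, rose by 0.64 ± 0.15 (adjusted p = 0.0258), the receptor gene Bmpr2 rose by 0.69 ± 0.17 (adjusted p = 0.0296) and Smad1, which carries that signal, rose by 0.30 ± 0.076 (adjusted p = 0.0327), each in 4 or 5 of those fits.

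Summed over 12 endothelial markers, levels were at 194, 178, 199.7, 194 and 194 CPM in vehicle 1 to 5 and at 178, 142, 174, 157 and 144 CPM in CK2i 1 to 5. Of 9 tested, 3 fell: Plvap, a protein of fenestrated endothelium, by 0.83 (adjusted p = 0.0127), the scavenger receptor gene Stab2 by 0.85 (adjusted p = 0.0398) and Pecam1 by 0.24 (adjusted p = 0.0429). The other 6 tested were not called. At an unadjusted p under 0.05 in edgeR, 5 of the 9 were lower and 1 higher. The higher gene was the receptor gene Flt1 (7.18 ± 2.17 and 10.2 ± 1.99 CPM, adjusted p = 0.126). DESeq2 called 4 lower and limma 1, and neither called any higher. Most of the sum was Pecam1, at 115 and 97.4 CPM, which blood cells also make. The next most abundant were Egfl7, at 28.7 ± 1.13 and 25.4 ± 3.63 CPM, the receptor gene Kdr, at 22.5 ± 5.11 and 14.9 ± 3.46 CPM, and Plvap, at 10.7 ± 1.48 and 6.06 ± 1.16 CPM. At the low end, Cdh5, Sox18 and Aplnr were at 0.71, 0.0775 and 0.155 CPM in vehicle, where Sox17 was at 0 in every library. The part of endothelial cells in the values of Eng and Tek was not tested.

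The surface markers that divide stem cells from multipotent progenitors did not pass in edgeR. Slamf1, the stem cell marker CD150, had the largest difference of the 31 genes, -0.56 ± 0.18 log2 (edgeR adjusted p = 0.0594, DESeq2 adjusted p = 0.0159). It stood at 43.5, 33.2, 48.6, 38.9 and 46.8 CPM in vehicle 1 to 5 and at 36.2, 20.6, 38.6, 24.8 and 23.03 CPM in CK2i 1 to 5. CK2i 2, 4 and 5 were below all vehicle libraries, while CK2i 1 and 3 lay inside the vehicle range. With CK2i 1, 3 and 4 only the difference was -0.35 (adjusted p = 0.279).

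Esam, an adhesion molecule of stem cells and platelets, and Myct1, a membrane protein of stem and endothelial cells, divided the CK2i libraries in the same way. Esam was at 30.3, 17.2, 34.98, 21.6 and 18.5 CPM in CK2i 1 to 5 against 26.3 to 36.8 CPM in vehicle (adjusted p = 0.148), and Myct1 at 30.2, 18.4, 29.6, 19.6 and 16.5 CPM against 24.5 to 31.9 CPM (adjusted p = 0.166). Adgrg1 was at 244, 211, 282, 224 and 208 CPM in CK2i 1 to 5 against 229 to 262 CPM (adjusted p = 0.383), so that CK2i 2, 4 and 5 were again the lowest of the 10 libraries. Within vehicle, the library with the least Slamf1, Esam, Myct1 and Adgrg1 was vehicle 2.

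Megakaryocyte markers were also lowest in CK2i 2, 4 and 5. Their summed CPM was 2174, 1295, 2749, 1828 and 1531 in CK2i 1 to 5 and 2879, 2271, 3508, 2634 and 3566 in vehicle 1 to 5. CK2i 1 also lay below all vehicle libraries, and vehicle 2 held the lowest sum in its group. Of the 9 markers edgeR called 3 lower: Tubb1, Ppbp and Gp9, by 0.88, 0.76 and 0.65 log2 (adjusted p = 0.0347, 0.0385 and 0.045). None of the 3 was called by edgeR for CK2i 1, 3 and 4 alone (adjusted p = 0.143, 0.184 and 0.209). With all libraries, all 9 were lower at an unadjusted p under 0.05 in edgeR. DESeq2 called 7 lower and limma 1, and none was higher. The part of megakaryocytic cells in the levels of Slamf1, Esam, Myct1 and Adgrg1 was not tested.

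**Figure D3:**
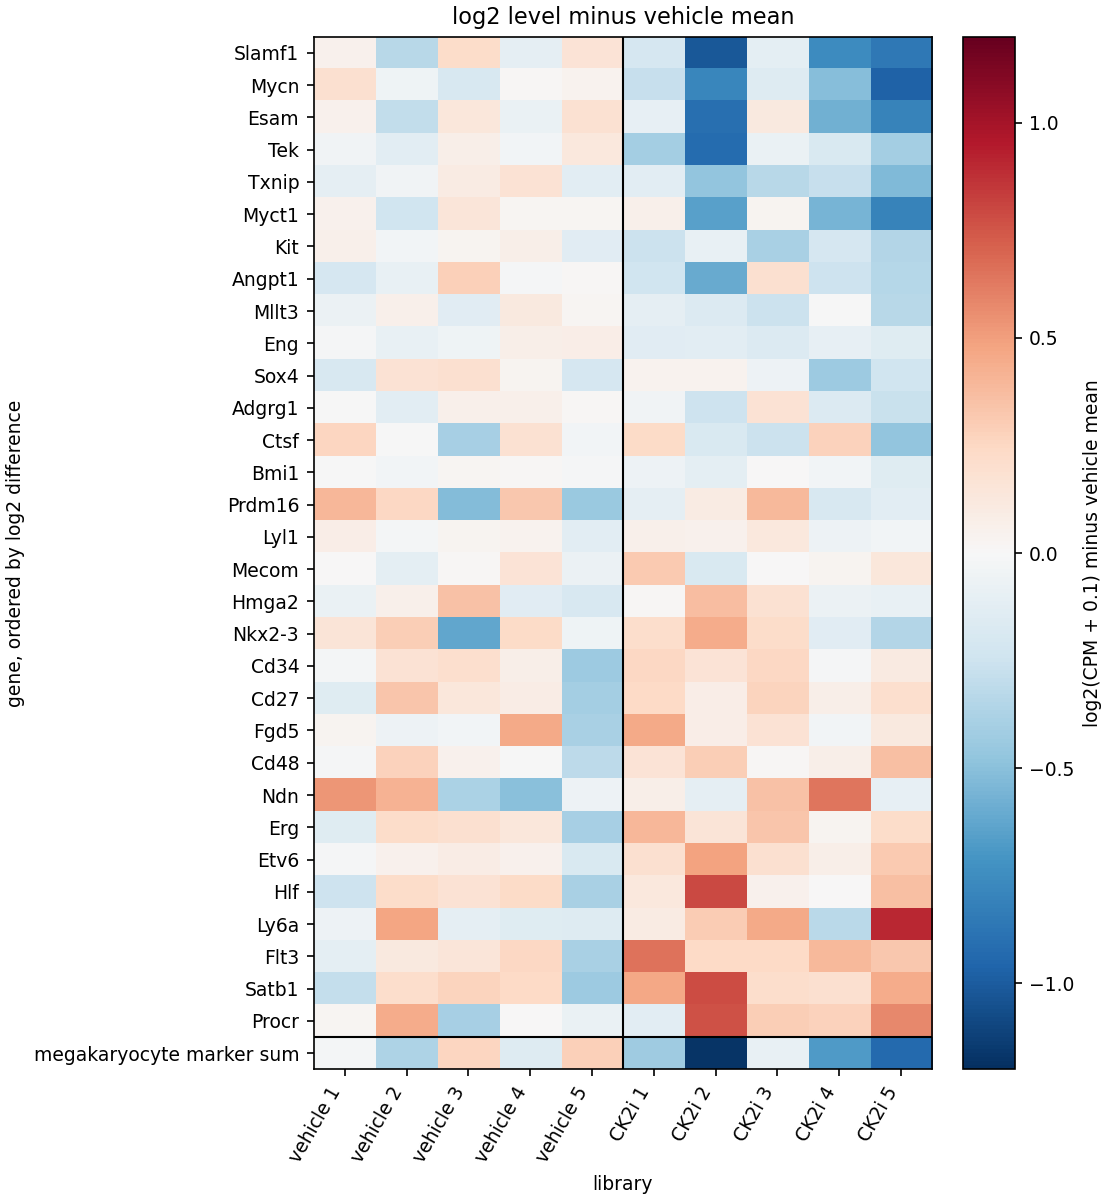
Log2(CPM + 0.1) of each gene in each library minus its vehicle mean, genes ordered by the log2 difference, with the summed megakaryocyte markers in the bottom row. Blue cells gather in CK2i 2, 4 and 5 for Slamf1, Esam and Myct1 and in the same libraries of the bottom row, and vehicle 5 is blue for Flt3, Satb1, Cd34, Cd27 and Erg.

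The 5 genes of multipotent progenitors, Flt3, Cd34, Cd48, Cd27 and Satb1, had log2 differences above 0, but edgeR called none of them higher (2 at an unadjusted p under 0.05, Flt3 and Satb1; 1 by DESeq2, Flt3; none by limma). Cd34 stood at 174, 200.2, 204, 186 and 131 CPM in vehicle 1 to 5 and at 211, 198, 209.8, 175 and 190.3 CPM in CK2i 1 to 5 (0.14 ± 0.11, adjusted p = 0.388). Cd48, a ligand of the CD2 family that stem cells lack, stood at 47.8, 58.5, 49.96, 48.1 and 38.8 CPM in vehicle 1 to 5 and at 54.1, 59.2, 48.6, 50.7 and 61.8 CPM in CK2i 1 to 5 (0.17 ± 0.10, adjusted p = 0.242). The groups overlapped for both, and vehicle 5 was the lowest library of all 10 in each. Cd27, a tumour necrosis factor receptor family member, was at 18.9 ± 3.61 and 21.04 ± 1.32 CPM (0.15 ± 0.12, adjusted p = 0.38). Satb1, a chromatin organiser of early lymphoid development, was at 21.9 ± 4.81 and 29.01 ± 5.01 CPM (0.41 ± 0.16, adjusted p = 0.101).

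Vehicle 5 was the lowest vehicle library for 15 of the 31 genes. The mean log2 level of the 5 genes relative to the vehicle mean was -0.40 in vehicle 5 and -0.12 in vehicle 1, 0.13 to 0.22 in vehicle 2 to 4, and 0.14 to 0.36 in CK2i libraries, which overlaps with vehicle 2 to 4. Without vehicle 5 the log2 differences of Cd34, Cd48 and Cd27 were 0.042, 0.10 and 0.062, and those of Flt3 and Satb1 were 0.27 and 0.31. Of 12 genes of lymphoid-primed progenitors 2 fell and none rose in edgeR (3 higher at an unadjusted p under 0.05, 2 by DESeq2, none by limma). Those that fell were the chemokine receptor gene Ccr9, by 0.80 ± 0.21 (adjusted p = 0.0356), and Il12a, an interleukin-12 subunit, by 0.37 ± 0.10 (adjusted p = 0.0424), called in 4 and 2 of the 10 fits without 1 library.

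Ly6a and Procr, surface markers of the most immature cells, were higher in some CK2i libraries without passing. Ly6a stood at 8.097, 11.7, 7.82, 7.64 and 7.57 CPM in vehicle 1 to 5 and at 9.06, 10.5, 11.6, 6.74 and 15.9 CPM in CK2i 1 to 5 (adjusted p = 0.286), with the highest level in CK2i 5 and the lowest in CK2i 4. Ly6a is also induced by interferon. Procr stood at 0.671, 0.932, 0.473, 0.659 and 0.618 CPM in vehicle 1 to 5 and at 0.592, 1.18, 0.831, 0.819 and 1.03 CPM in CK2i 1 to 5 (adjusted p = 0.223). CK2i 2 and 5 alone lay above all vehicle libraries, and the log2 difference of 0.41 became 0.16 with CK2i 1, 3 and 4 only.

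**Figure D4:**
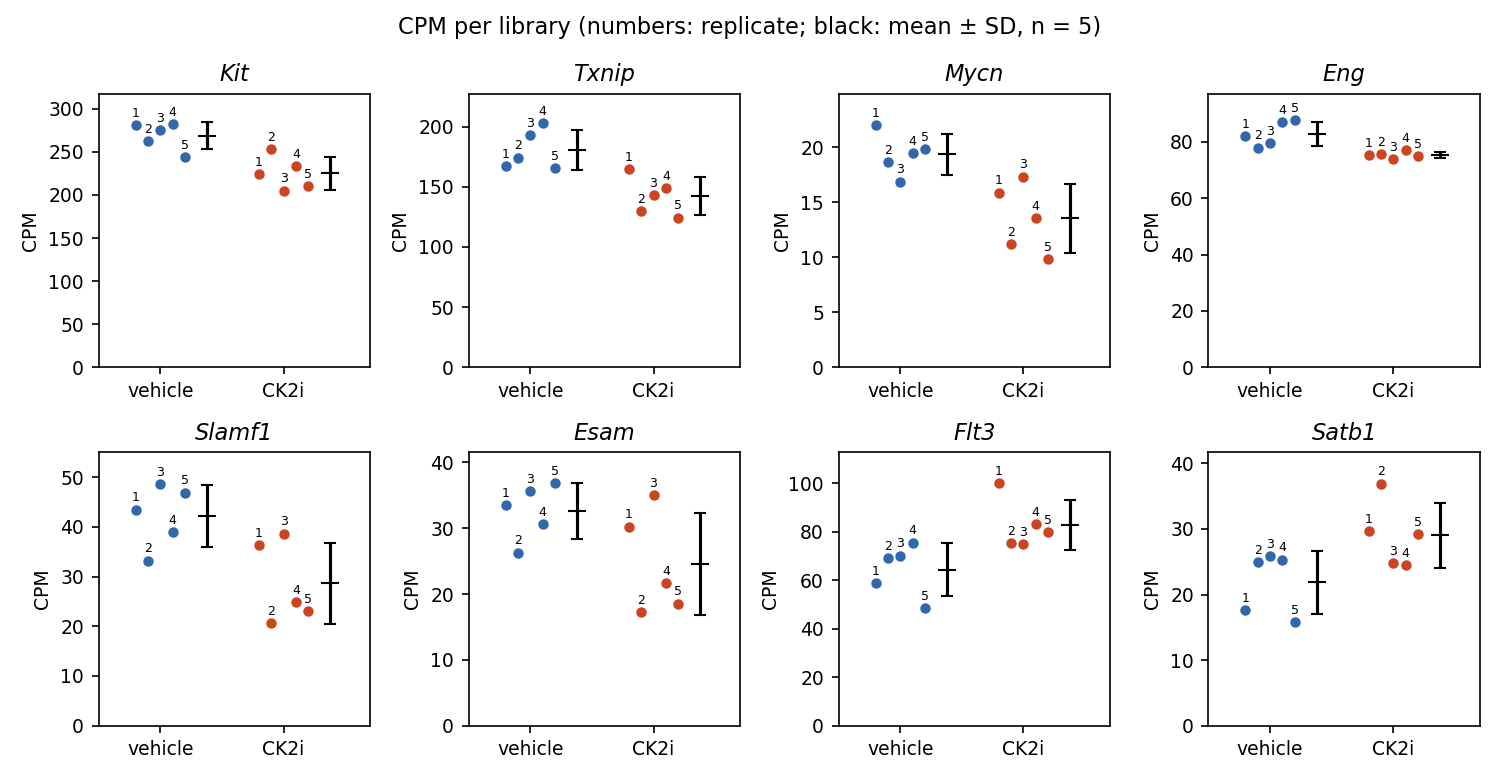
CPM of 8 genes in each library (points numbered by replicate, black bar with whiskers the mean ± SD, n = 5 per group), each axis starting at 0. The groups are separate for Txnip and Eng, and CK2i 2, 4 and 5 lie below the vehicle libraries for Slamf1 and Esam.

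Of the 13 genes of transcription factors and chromatin proteins 1 was called by edgeR, Mycn. Mycn encodes the MYC family member that stem cells express beside Myc (ENSMUSG00000037169; chromosome 12, 12936093 to 12941914, minus strand). It stood at 22.00, 18.6, 16.9, 19.4 and 19.8 CPM in vehicle 1 to 5 and at 15.9, 11.2, 17.3, 13.5 and 9.82 CPM in CK2i 1 to 5. CK2i 3 lay inside the vehicle range, the other 4 CK2i libraries below it, and CK2i 2 and 5 were the lowest. The fall was 0.51 ± 0.14 log2 (adjusted p = 0.0422), and the log2 difference was -0.32 with CK2i 1, 3 and 4 only (adjusted p = 0.149). It was called in 2 of the 10 fits without 1 library, those without CK2i 1 and without CK2i 3.

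Factors tied to stem cell maintenance did not pass. Mecom, whose product EVI1 sustains stem cells, stood at 4.84, 4.42, 4.86, 5.39 and 4.58 CPM in vehicle 1 to 5 and at 5.996, 4.22, 4.81, 4.91 and 5.28 CPM in CK2i 1 to 5 (0.065 ± 0.11, adjusted p = 0.692). Its relative Prdm16 was at 3.36 ± 0.999 and 3.299 ± 0.59 CPM (adjusted p = 0.943). Hlf stood at 6.02, 8.36, 8.098, 8.42 and 5.43 CPM in vehicle 1 to 5 and at 7.82, 12.5, 7.405, 7.16 and 9.23 CPM in CK2i 1 to 5 (0.28 ± 0.18, adjusted p = 0.286). The groups overlapped for all 3, and for Hlf the difference was 0.037 with CK2i 1, 3 and 4 only. Mllt3, a reader of acetylated and crotonylated histones that supports self-renewal, was at 63.3 ± 4.302 and 56.2 ± 5.06 CPM with 3 CK2i libraries below all vehicle libraries (adjusted p = 0.102).

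The other factors were Etv6, Erg, Lyl1, Sox4, Nkx2-3, Bmi1 and Hmga2. Etv6, an ETS repressor that adult stem cells need, came closest to a call, at 144 ± 10.4 and 171 ± 18.9 CPM (0.25 ± 0.077, edgeR adjusted p = 0.0513, DESeq2 adjusted p = 0.0185), with 4 CK2i libraries above all vehicle libraries. The ETS activator gene Erg was at 27.2 ± 4.74 and 31.5 ± 3.11 CPM (adjusted p = 0.217) and Lyl1 at 90.1 ± 4.97 and 91.9 ± 4.89 CPM (adjusted p = 0.712). Sox4, an HMG-box factor, was at 60.6 ± 7.95 and 55.5 ± 7.59 CPM (adjusted p = 0.427), and Nkx2-3 at 0.608 ± 0.159 and 0.643 ± 0.157 CPM (adjusted p = 0.828). Lyl1 and Bmi1 varied least between vehicle libraries among these 7, with coefficients of variation of 5.52% and 1.58%.

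Partners of these factors in the stem cell network fell in 3 of 19 tested genes and rose in 1. Ldb1, the scaffold that joins Lmo2 to Tal1 and GATA factors, fell by 0.32 ± 0.064 (adjusted p = 0.0184), from 225 ± 14.3 to 180.4 ± 15.4 CPM, and stayed called whichever library was left out. Lmo2 fell by 0.15 ± 0.033 (adjusted p = 0.0216; 8 of the 10), and Gfi1b, a repressor that red cell and platelet precursors need, fell by 0.55 ± 0.12 (adjusted p = 0.0248; 7 of the 10). Gfi1, its myeloid counterpart, rose by 0.91 ± 0.18 (adjusted p = 0.0187; 9 of the 10). All 5 CK2i libraries lay outside the vehicle range for these 4 genes. For CK2i 1, 3 and 4 alone edgeR called none of the 4 (adjusted p = 0.0673, 0.0912, 0.112 and 0.0912). Summed CPM of 10 erythroid markers, which share these factors, was 4622, 3409, 3353, 3794 and 4424 in vehicle 1 to 5 and 3089.6, 2739, 3088, 3451 and 2567 in CK2i 1 to 5. Of the 10 erythroid markers 3 fell and 2 rose, and the 3 with the smallest p were the anion exchanger gene Slc4a1 (log2 difference 1.68 ± 0.29), the carbonic anhydrase gene Car1 (-0.77 ± 0.16) and Alas2 of heme synthesis (1.02 ± 0.24). Their part in the result was not tested.

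Bmi1, the Polycomb protein that represses the Cdkn2a locus, was at 50.9 ± 0.807 and 48.6 ± 2.07 CPM (-0.067 ± 0.038, adjusted p = 0.229). Of 14 tested partners edgeR called none (2 lower and 2 higher at an unadjusted p under 0.05; 1 higher by DESeq2; none by limma). Cdkn2a itself was near 0, at 0.00515 CPM in vehicle and 0.0313 in CK2i.

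Hmga2 was low in both groups, at 1.91 ± 0.321 and 2.02 ± 0.294 CPM (adjusted p = 0.724), while the RNA 1700006J14Rik on the opposite strand fell. That RNA, whose exon overlaps Hmga2 by 140 bases, stood at 8.005, 7.51, 9.14, 7.52 and 9.94 CPM in vehicle 1 to 5 and at 2.88, 2.54, 2.29, 3.09 and 2.03 CPM in CK2i 1 to 5. The groups were far apart, and the fall was 1.71 ± 0.13 log2 (adjusted p = 3.85e-04), called whichever library was left out. The log2 difference of Hmga2 in the same libraries was 0.083 ± 0.15. In the axis of Lin28 and Hmga2, 2 of 4 tested genes rose: Lin28a, an RNA-binding protein that blocks let-7 maturation, from 1.196 ± 0.389 to 3.37 ± 1.44 CPM (adjusted p = 0.023), and Igf2bp3 from 0.152 ± 0.076 to 0.39 ± 0.1 CPM (adjusted p = 0.0323). Both are low, each was called in 5 of the 10 fits without 1 library, and Lin28b, the paralog of fetal stem cells, was at 0.092 and 0.103 CPM.

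The remaining genes are Txnip, Ctsf, Ndn and Fgd5, beside Myct1 above. Txnip binds thioredoxin, limits glucose uptake and is abundant in quiescent stem cells (ENSMUSG00000038393; chromosome 3, 96557957 to 96561883, plus strand). It stood at 167, 174, 193, 203 and 165 CPM in vehicle 1 to 5 and at 165, 130.00, 143, 149 and 124 CPM in CK2i 1 to 5. All CK2i libraries lay below all vehicle libraries, though CK2i 1 and vehicle 5 differed by little. Txnip fell by 0.34 ± 0.084 (adjusted p = 0.0296), and the difference was -0.25 with CK2i 1, 3 and 4 only (adjusted p = 0.131). The call was lost without vehicle 1, vehicle 3, vehicle 4, CK2i 2 or CK2i 5 and kept in the other 5 such fits. It was also the only call among the 31 genes by limma on log2(FPKM + 1) (adjusted p = 0.0476). An RNA on the other strand, Gm15441, overlaps a Txnip exon by 441 bases, and it was at 0.32 ± 0.0784 and 0.217 ± 0.11 CPM, far below Txnip.

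Of the glucose-sensing partners of Txnip, 1 of 9 tested genes fell and 1 rose. Mlxip, which encodes the MondoA subunit named with the promoter above, rose by 0.52 ± 0.13 (adjusted p = 0.0344), at 35.9, 36.9, 37.6, 38.2 and 33.1 CPM in vehicle 1 to 5 and 44.3, 69.6, 41.3, 44.9 and 60.4 CPM in CK2i 1 to 5. Every CK2i library lay above every vehicle library, with CK2i 2 and 5 highest, and the rise was 0.26 with CK2i 1, 3 and 4 only (adjusted p = 0.062). Arrdc3, an arrestin relative of Txnip, fell by 0.38 ± 0.11 (adjusted p = 0.0428), and its paralog Arrdc4 was at 13.1 ± 1.67 and 10.9 ± 1.56 CPM (adjusted p = 0.12). Mlxip and Arrdc3 were each called in 3 of the 10 fits without 1 library. The 15 promoters with the carbohydrate response element belong to 14 genes, of which 9 were tested. Of these edgeR called 1, Txnip. Among the other 8, Rbbp4, a histone-binding protein, was at 320.5 ± 6.22 and 341 ± 9.86 CPM (adjusted p = 0.0823) and the lysosomal mannosidase gene Man2b2 at 46.4 ± 3.31 and 53.9 ± 5.03 CPM (adjusted p = 0.0607), which were chosen after their values were seen as the lowest p-values of the 8.

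Ctsf, a lysosomal cysteine protease enriched in stem cells, was at 4.22 ± 0.718 and 4.01 ± 0.921 CPM (adjusted p = 0.796), and its difference changed sign with CK2i 1, 3 and 4 only. Fgd5 was at 0.992 ± 0.234 and 1.11 ± 0.159 CPM (adjusted p = 0.579) and Ndn at 0.373 ± 0.151 and 0.422 ± 0.122 CPM (adjusted p = 0.71). Genes of quiescence and imprinted genes of stem cells fell in 2 of 9 tested, and edgeR called none higher (1 at an unadjusted p under 0.05; none by DESeq2 or limma). Grb10, an imprinted adaptor that dampens insulin and Kit signals, stood at 85.8, 86.8, 68.99, 80.8 and 75.6 CPM in vehicle 1 to 5 and at 51.4, 45.9, 56.1, 55.3 and 33.4 CPM in CK2i 1 to 5. The groups were apart, and Grb10 fell by 0.72 ± 0.13 (adjusted p = 0.0132), and stayed called whichever library was left out, also for CK2i 1, 3 and 4 alone (-0.56, adjusted p = 0.0229). Foxo3, a transcription factor that guards stem cell quiescence, fell by 0.20 ± 0.041 (adjusted p = 0.0185; all 10 fits), with -0.19 for CK2i 1, 3 and 4 only (adjusted p = 0.0883). The stem cell inhibitor gene Cdkn1c was at 0.532 and 0.377 CPM, and the imprinted genes H19, Igf2, Meg3, Peg3 and Dlk1 were each under 0.1 CPM on average in both groups. Other imprinted genes of the list lay higher, with Mest at 21.6 ± 8.53 and 19.3 ± 8.85 CPM and Plagl1 at 0.245 and 0.199 CPM.

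Split by the cells they are known from, the 13 genes enriched in stem cells held no call in edgeR (3 lower at an unadjusted p under 0.05, Slamf1, Tek and Mllt3; 2 lower by DESeq2; none by limma), with a median log2 difference of -0.026. The 5 genes of multipotent progenitors also held none, with a median of 0.17. The 13 genes expressed across the compartment held all 4 calls, with a median of -0.10. The calls are 30.8% of these 13 genes, where 6.76% of all genes tested were called lower. The genes were chosen with earlier results of these data known. Txnip and Mycn, counted in this class, are also expressed in stem cells, as given above. The split therefore does not show to which cells the calls belong. Whether the stem cell, multipotent progenitor and compartment-wide genes differed from each other was not tested. Per library, the mean log2 level of the 13 stem cell genes relative to vehicle was 0.031, -0.15, 0.071, -0.092 and -0.24 in CK2i 1 to 5 and -0.13 to 0.094 in vehicle libraries, so that CK2i 2 and 5 lay below all vehicle libraries.

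Summed markers of the other cell types listed overlapped between the groups. Summed CPM of 10 mature neutrophil markers was 25.98 to 62.4 in vehicle and 37.8 to 105 in CK2i, with 3 of 10 genes higher (Lcn2, S100a8 and Mmp8). For 8 monocyte markers the sums were 705 to 1164 and 998 to 1742 CPM. Of these 8 genes edgeR called none, with 3 higher at an unadjusted p under 0.05, while DESeq2 called 2 higher and limma none. The sums were 82.9 to 156 and 108 to 136 CPM for 10 stromal markers and 14.9 to 20.7 and 16.7 to 21.3 for 7 B cell markers. For 10 T and NK cell markers they were 6.05 to 7.59 and 5.39 to 7.199 CPM. Genes induced by cell dissociation summed to 1583 to 2222 and 1827 to 3219 CPM, with Hspa1a and Hspa1b higher, and their part in the values of the 31 genes was not tested.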

How the data were processed

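The authors deposited, for each of 10 libraries, estimated counts and FPKM per Ensembl gene. Per the submitters' processing notes, Bowtie2, RSEM 1.2.31, DESeq2 and the build mm10 were used, while for the annotation and strand setting the sources used here give nothing. Per the labels' protocols, stranded total RNA libraries were read as paired reads of 75 bases. The deposited estimated counts are whole numbers; the deposited FPKM values scale them by length and depth. RSEM divides reads shared by near copies, so values of Hspa1a and Hspa1b are uncertain one by one.

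Of 38887 identifiers, 37570 matched GENCODE M21 (GRCm38, also named mm10); 2 empty lines were left out. Differences were tested in R 4.3.3 by the quasi-likelihood method of edgeR 4.0.16, on rounded counts with TMM scaling, filterByExpr (minimum count 10; 14346 genes kept), group as the only term and Benjamini-Hochberg adjustment over all genes tested, threshold 0.05, two-sided. SE is the log2 difference divided by the square root of F. CPM are TMM-scaled. P-values measure the spread between libraries, which the labels do not tie to separate mice. No pair of replicates agreed within sampling noise (chi-square per degree of freedom 10.96 or more). The fit was tested on simulated data.

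Alternatives were DESeq2 1.42.0, its size factors, other filters, limma 3.58.1 with trend on log2(FPKM + 1) and log2(FPKM + 0.1) for genes over 0.5 mean FPKM, 1 surrogate variable (sva 3.50.0), a replicate block and left-out libraries. The 31 genes and the other gene lists were chosen with earlier results of these data known. Values in every library are given for called genes and for Kit, Flt3, Cd34, Cd48, Slamf1, Ly6a, Procr, Mecom, Hlf and Txnip; of other lists, called members are named, the 3 with the smallest p where more than 3 passed. Cbl, Smad1 and Gfi1b, beyond those 3, were added after their values were seen, as were uncalled genes named for context.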

Additional observations from a re-analysis of the deposited data

Results flagged for a closer look

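Of 62 groups of 5 libraries (31 genes, each in vehicle and in CK2i), 1 held a library far from the others, where chance alone gives about 5% of groups. Ly6a was at 11.7 CPM in vehicle 2, against 7.57 to 8.097 CPM in the other vehicle libraries, a gap of 0.874 of the range.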

How the results depend on the processing

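The number of genes called over the whole table, 1892, was 3176 with DESeq2, 1139 with a replicate block, 1007 and 1025 by limma on log2(FPKM + 1) and log2(FPKM + 0.1), 15 with 1 surrogate variable (whose correlation with the group was 0.741) and 175 with CK2i 1, 3 and 4 only. Leaving out 1 library gave 446 to 3198. Of the 31 genes, 4 were called lower in the main test, 3 with no filter on low counts and at a minimum count of 50 (both without Eng), 1 in each limma fit, 0 with 1 surrogate variable, 0 with CK2i 1, 3 and 4 only, and 0 to 7 without 1 library. None was called higher in the main test, 1 (Etv6) at a minimum count of 50, 2 with DESeq2 and 0 to 2 without 1 library. The median log2 difference of the 31 stayed within -0.062 and 0.059 without 1 library and moved in the other alternatives by less than its spread between libraries. The cause was not tested. With DESeq2's size factors all 31 genes kept their direction and their side of the threshold.

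With 1 surrogate variable 11 genes changed sign: Procr to -0.068, Hlf to -0.18, Ctsf to 0.19, Ly6a to -0.076, Cd48 to -0.093, Prdm16 to 0.065, Angpt1 to 0.035, Esam to 0.17, Myct1 to 0.16, Bmi1 to 0.0099 and Adgrg1 to 0.13. In the same fit Mycn became -0.068 and Slamf1 -0.032, while Kit, Txnip and Eng were at -0.31, -0.20 and -0.12. Ctsf became 0.082 with CK2i 1, 3 and 4 only. Prdm16 became 0.0037 with the replicate block and 0.11 and 0.23 in the limma fits. Without 1 library, the range crossed 0 for Prdm16 (-0.15 to 0.079), Nkx2-3 (-0.062 to 0.19), Lyl1 (-0.0028 to 0.052), Mecom (-0.0048 to 0.12) and Ctsf (-0.17 to 0.017). None of these was called in any of those fits.

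Replicate numbers are shared by the groups, but the labels do not say that they pair libraries. The correlation of same-numbered libraries' deviations ran from -0.16 to 0.23, over 0.1 in 2 of 5 pairs, and 2 of the 5 CK2i libraries correlated best with the vehicle library of their own number. With the replicate block Kit and Txnip stayed called (adjusted p = 0.0433 and 0.0353), Slamf1 was called (0.0323), and Mycn and Eng were not (0.0552 and 0.0837).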
